A study of Homo sapiens with 17 samples.

Results

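The distribution of trimethylated histone H3 lysine 9 (H3K9me3) was compared with that of trimethylated lysine 27 (H3K27me3) in A549, a line of human lung carcinoma cells. The lists compared were the 2 that the sample titles assign to H3K9me3 and the 2 assigned to H3K27me3 in the WT line, 4 of the 17 samples of the series and 4 of the 14 that have a peak list. The other samples are FOXA1 and FOSL2 chromatin immunoprecipitations and inputs, part of them from a line that carries the A-Fos transgene. All 4 libraries came from WT cells that received no treatment, so they differ by the antibody alone as far as the labels say: Abcam ab8898 for H3K9me3 and Abcam ab6002 for H3K27me3. Cells were fixed in 1% formaldehyde for 10 min and, per the labels, about 50 M paired reads of 50 bp were obtained per library. The titles call the libraries of a mark biological replicates. A mark was taken as present at a base when both of its lists had a peak there, on chromosomes 1 to 22 and X.

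H3K9me3 is the mark of constitutive heterochromatin. It is written by SETDB1 and the SUV39H enzymes, is bound by HP1 proteins, and is brought to repeats and to clusters of KRAB zinc finger genes through the corepressor TRIM28. H3K27me3 is written by Polycomb repressive complex 2 and is known for its place over silent developmental regulators and tissue-specific genes, where it often starts at CpG islands.

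Promoters of genes among the most fully covered by each mark are shown first, since they give the contrast in its plainest form. Each runs from 250 bases before to 50 after the RefSeq start (GRCh38.p14), 5′ to 3′ on the gene's strand, with CpG dinucleotides in capitals. ZNF671 (chr19:57727575-57727874, minus strand) and ZNF132 (chr19:58440104-58440403, minus strand) encode zinc finger proteins and were covered over all 300 bases in both H3K9me3 lists and in neither H3K27me3 list.
ZNF671: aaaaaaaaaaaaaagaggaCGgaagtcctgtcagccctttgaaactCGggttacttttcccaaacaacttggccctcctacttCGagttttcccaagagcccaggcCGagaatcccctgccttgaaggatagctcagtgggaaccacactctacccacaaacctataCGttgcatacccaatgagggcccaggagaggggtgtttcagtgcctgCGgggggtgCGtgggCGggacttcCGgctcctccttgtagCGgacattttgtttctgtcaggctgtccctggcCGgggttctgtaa
ZNF132: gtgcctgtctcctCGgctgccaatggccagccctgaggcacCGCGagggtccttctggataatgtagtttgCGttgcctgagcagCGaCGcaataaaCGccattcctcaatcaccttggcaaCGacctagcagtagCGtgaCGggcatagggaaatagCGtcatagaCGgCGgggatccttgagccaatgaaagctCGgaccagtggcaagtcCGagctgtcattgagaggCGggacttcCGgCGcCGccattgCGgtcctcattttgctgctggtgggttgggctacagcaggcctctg
PDYN (chr20:1994236-1994535, minus strand), which encodes the opioid precursor prodynorphin, and CD300LB (chr17:74531426-74531725, minus strand), a myeloid surface receptor gene, were covered over all 300 bases in both H3K27me3 lists. No base of the PDYN promoter lay in an H3K9me3 peak, whereas the CD300LB promoter was covered in H3K9me3 replicate 1 and not in H3K9me3 replicate 2.
PDYN: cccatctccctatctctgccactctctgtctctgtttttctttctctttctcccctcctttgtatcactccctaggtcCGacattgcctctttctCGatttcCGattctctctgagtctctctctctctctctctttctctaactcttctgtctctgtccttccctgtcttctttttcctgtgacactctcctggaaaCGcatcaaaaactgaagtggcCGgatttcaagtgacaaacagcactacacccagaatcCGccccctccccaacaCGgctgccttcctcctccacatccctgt
CD300LB: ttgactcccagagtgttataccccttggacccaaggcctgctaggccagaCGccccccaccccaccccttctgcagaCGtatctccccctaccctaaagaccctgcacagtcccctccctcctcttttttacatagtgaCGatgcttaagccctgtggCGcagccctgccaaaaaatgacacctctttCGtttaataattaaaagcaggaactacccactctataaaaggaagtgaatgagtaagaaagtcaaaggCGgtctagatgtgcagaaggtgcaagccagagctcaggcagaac
WNT6 (chr2:218859555-218859854, plus strand), which encodes a secreted Wnt ligand, is added for a CpG-rich start, chosen after its values were seen. None of its 300 promoter bases lay in a peak of any of the 4 lists, yet H3K27me3 peaks of both lists covered 1282 of the 2001 bases centred on its 5′ end, and H3K9me3 covered none of them.
WNT6: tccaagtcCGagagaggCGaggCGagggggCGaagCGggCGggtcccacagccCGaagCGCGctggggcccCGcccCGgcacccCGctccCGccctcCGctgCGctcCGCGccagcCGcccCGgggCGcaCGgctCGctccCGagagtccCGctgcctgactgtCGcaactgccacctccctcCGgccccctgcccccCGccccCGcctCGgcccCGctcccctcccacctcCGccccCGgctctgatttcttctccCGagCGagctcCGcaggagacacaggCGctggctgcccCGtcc
The 5 promoters hold 11, 20, 7, 6 and 37 CpG in that order. Their observed CpG numbers are 0.503, 0.769, 0.522, 0.319 and 0.864 times the number expected from their base composition.

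H3K9me3 replicates 1 and 2 held 305084 and 201740 peaks, and H3K27me3 replicates 1 and 2 held 190938 and 228427. H3K9me3 peaks covered 195.2 and 177.7 Mb, against 189.4 and 258.3 Mb for H3K27me3. These per-list lengths overlapped between the marks, with means of 186 ± 12.4 Mb for H3K9me3 and 224 ± 48.7 Mb for H3K27me3 (SD, n = 2 each; two-sided exact permutation p = 0.667). With 2 lists against 2 the smallest p that test can give is 0.33. Bases present in both lists came to 101.8 Mb for H3K9me3 and 148.3 Mb for H3K27me3, or 3.36% and 4.90% of the span of the chromosomes. The log2 ratio of covered length, H3K9me3 over H3K27me3, was -0.54 with shared bases for both marks. With only replicate 1 or only replicate 2 of H3K9me3 set against the shared H3K27me3 bases, it was 0.40 or 0.26. As 1 list always covers more than 2 share, this change of sign cannot tell whether the order of the marks is stable.

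The lists of 1 mark resembled each other far more than they resembled the other mark. Shared bases were 37.6% of the union of the H3K9me3 lists and 49.5% of the union of the H3K27me3 lists, while a list of one mark and a list of the other shared 5.05% to 8.68%. Bases carrying both marks in all 4 lists came to 10.2 Mb, which is 10.0% of the H3K9me3 bases and 6.89% of the H3K27me3 bases. Both shares are above those of the whole span, of which H3K27me3 covered 4.90% and H3K9me3 3.36%. The peak lists hold no read counts, so the depth behind a peak is unknown, and a cell population in which fewer cells carry a mark cannot be told apart from one in which each cell carries less. The authors' fold enrichments had medians of 3.25 and 3.32 in the H3K9me3 lists and 3.53 and 3.42 in the H3K27me3 lists.

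Chromosome 19 was the single chromosome on which both H3K9me3 lists lay above both H3K27me3 lists. H3K9me3 peaks covered 26.8% and 27.3% of it in replicates 1 and 2, against 12.4% and 15.01% for H3K27me3. Counting bases in both lists, H3K9me3 covered 22.4% of chromosome 19 and H3K27me3 10.9%, a ratio of 2.06. This chromosome, 1.93% of the span considered, held 12.9% of all H3K9me3 bases and 4.31% of all H3K27me3 bases. H3K27me3 on chromosome 19 was itself high, exceeded on shared bases by chromosomes 20 and 17.

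The opposite order held on 12 chromosomes (1, 9, 10, 11, 13, 14, 15, 16, 17, 18, 20 and 22), where both H3K27me3 lists lay above both H3K9me3 lists. On chromosome 20, with the lowest ratio (0.379), H3K9me3 covered 11.0% and 8.72% in the 2 lists, against 16.9% and 20.8% for H3K27me3. On chromosome 17, H3K9me3 covered 8.92% and 7.02%, against 13.2% and 16.1% for H3K27me3. The lists of the marks overlapped on the other 10 chromosomes, X included, where H3K9me3 covered 3.13% and 3.44%, and H3K27me3 2.54% and 4.29%. Chromosome 4 came closest to parity on shared bases, with 1.14% for H3K9me3 and 1.14% for H3K27me3.

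**Figure D1:**
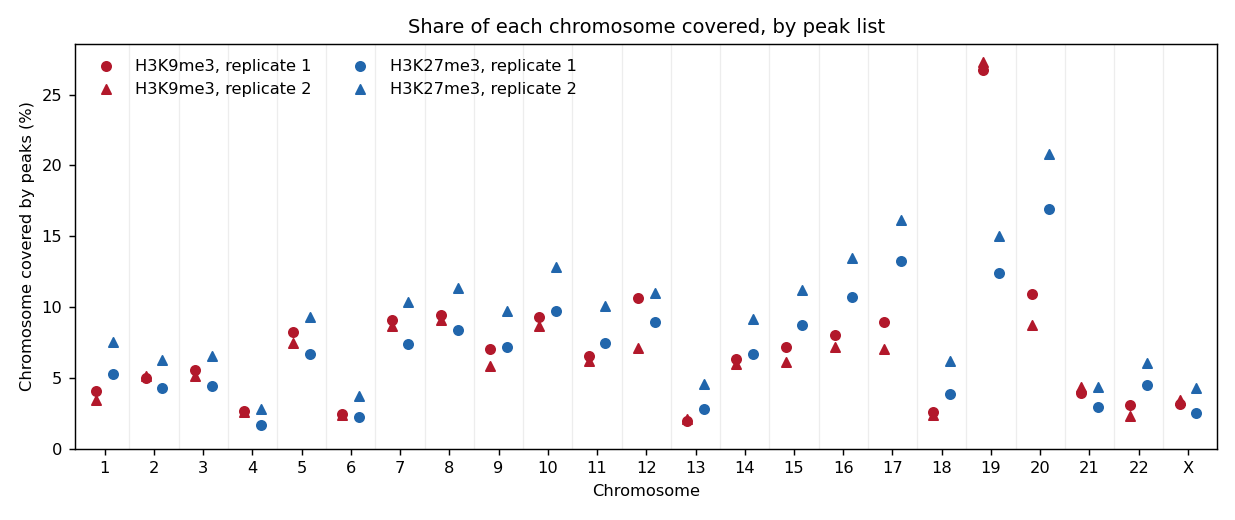
Percent of each chromosome covered by the peaks of each list (y axis) on chromosomes 1 to 22 and X (x axis); circles are replicate 1 and triangles replicate 2, with H3K9me3 in red on the left and H3K27me3 in blue on the right of each chromosome. The H3K9me3 points of chromosome 19, at 26.8% and 27.3%, stand above every other point, and the highest H3K27me3 points are those of chromosome 20, at 16.9% and 20.8%.

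Across the 23 chromosomes the marks nonetheless ranked alike. Spearman's rank correlation between the shared coverage of H3K9me3 and of H3K27me3 was 0.898 over all chromosomes and 0.890 over the 22 without chromosome 19. These are descriptions over chromosomes measured in the same libraries, which share copy number and base composition, and carry no test.

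Most bins of 1 Mb differed between the marks, and few were very full of either. Of 2721 bins tested by limma with Benjamini-Hochberg adjustment, 953 (35.0%) had higher coverage by H3K9me3 and 906 (33.3%) by H3K27me3 at an adjusted p below 0.05. H3K9me3 covered at least 20% of 46 bins, 22 of them on chromosome 19, and H3K27me3 covered at least 20% of 153 bins, 10 of them on chromosome 19. The limma fit for bins used 1 common trend of spread for all bins, so its calls rest less on the spread within a bin than those for genes. The number of bins higher in H3K27me3 was 328 and 268 without H3K9me3 replicates 1 and 2.

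The bin from 57 to 58 Mb of chromosome 19 (chr19:57000001-58000000) was the fullest H3K9me3 bin: its lists covered 88.1% and 90.9% of it, against 0.928% and 1.38% for H3K27me3. It overlaps 40 protein-coding genes, 32 of them zinc finger genes by symbol. The next, chr19:52000001-53000000, was covered to 88.2% and 91.5% by H3K9me3 and to 0.295% and 0.105% by H3K27me3, and 24 of its 26 genes are zinc finger genes. All 6 of the fullest H3K9me3 bins lay on chromosome 19.

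The fullest H3K27me3 bin was chr12:2000001-3000000, with 19.8% and 7.49% covered by H3K9me3 and 62.1% and 66.5% by H3K27me3. It holds CACNA1C, which encodes the pore of an L-type calcium channel. The bin chr17:74000001-75000000, with the CD300 family of leukocyte receptors, had 17.4% and 9.81% for H3K9me3 and 56.0% and 59.9% for H3K27me3. The bin chr19:30000001-31000000, with the neural zinc finger gene ZNF536, carried much of both marks, at 43.9% and 38.3% for H3K9me3 and 51.8% and 58.2% for H3K27me3. The fullest H3K27me3 bins were thus spread over chromosomes 12, 15, 17 and 19 and hold few zinc finger genes.

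H3K9me3 lay mostly in short runs with a small set of very long ones, while H3K27me3 lay mostly in runs of intermediate length. Bases in both lists of a mark were joined over gaps of up to 3 kb into domains. There were 80067 H3K9me3 domains with a median of 0.809 kb and 51016 H3K27me3 domains with a median of 1.66 kb. The N50, the length at or above which domains make up 50% of the summed domain length, was 5.03 kb for H3K9me3 and 14.7 kb for H3K27me3. Joined within each list, the N50 was 6.69 and 5.94 kb in the H3K9me3 lists and 15.3 and 19.1 kb in the H3K27me3 lists. The groups did not overlap, at the smallest p that 2 lists against 2 can give (two-sided exact permutation p = 0.33).

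Domains of at least 10 kb numbered 1999 for H3K9me3 and 6721 for H3K27me3 and held 28.0% and 63.8% of the bases of their mark. Domains under 1 kb held 16.9% of H3K9me3 bases and 5.90% of H3K27me3 bases. The order turned at the far end: domains of at least 100 kb held 9.29% of H3K9me3 bases in 51 domains and 5.73% of H3K27me3 bases in 83 domains. The longest H3K9me3 domain measured 1405 kb and the longest H3K27me3 domain 273 kb. Chromosome 19 held 74 of the 162 H3K9me3 domains of at least 50 kb, and 34 of the 525 H3K27me3 domains of that length.

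**Figure D2:**
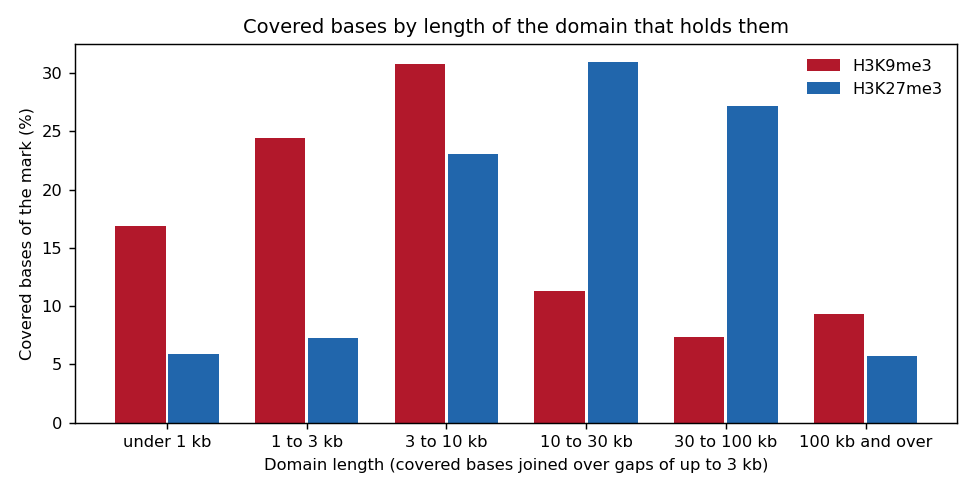
Share of the bases of each mark (y axis, percent of bases covered in both lists) by the length of the domain that holds them (x axis), with H3K9me3 in red on the left and H3K27me3 in blue on the right. H3K9me3 exceeds H3K27me3 in the 3 shortest classes and in the class of 100 kb and over (9.29% and 5.73%), and H3K27me3 exceeds H3K9me3 in the classes from 10 to 30 kb (11.3% and 30.9%) and from 30 to 100 kb (7.37% and 27.2%).

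Of the 8 longest H3K9me3 domains, 7 lay on chromosome 19, and each of the 8 takes in several zinc finger genes. The longest, chr19:51780592-53185224, overlaps 37 protein-coding genes, and H3K9me3 covered 83.8% of it in both lists, against 0.0497% for H3K27me3. The domain chr19:57733197-58324812 was the most densely filled of the 8, with 94.7% and 95.0% covered in the H3K9me3 lists and 0.567% and 0.441% in the H3K27me3 lists. The domain chr19:56317167-56843888 takes in PEG3 and ZIM2, which are imprinted genes. The single one elsewhere, chr5:178627677-179101406, spans ZNF354A, ZNF354B, ZNF354C and GRM6, the metabotropic glutamate receptor of retinal bipolar cells, with 79.5% and 84.0% covered by H3K9me3 and 1.93% and 3.05% by H3K27me3.

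The 8 longest H3K27me3 domains overlap 1 protein-coding gene each or none. The longest, chr17:34415336-34687944, lies over TMEM132E, a gene for a membrane protein needed for hearing, with 5.71% and 1.53% covered by H3K9me3 and 87.4% and 91.3% by H3K27me3. The domain chr12:2398515-2638074 lies within CACNA1C and had 27.8% and 10.1% for H3K9me3 and 91.1% and 94.7% for H3K27me3. Others lie over WSCD1, TENM2 (a teneurin of neuronal synapses), RORA (a nuclear receptor), NPTX2 (a secreted neuronal pentraxin) and LZTS1. The NPTX2 domain on chromosome 7 carried the most H3K9me3 of the 8, with 36.8% and 28.9% covered by H3K9me3 and 76.8% and 85.2% by H3K27me3.

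Gene bodies, which make up 41.6% of the span, held 35.6% of H3K9me3 bases and 38.4% of H3K27me3 bases. Both marks were thus somewhat sparser inside protein-coding genes than outside: 2.87% of gene body bases and 3.71% of the rest carried H3K9me3, and 4.51% and 5.17% carried H3K27me3. H3K9me3 touched 7344 of 19970 protein-coding genes in both lists, and H3K27me3 touched 5645. Fewer were mostly covered: H3K9me3 covered at least 50% of the body of 394 genes (1.97%), of which 272 are zinc finger genes and 238 lie on chromosome 19, and H3K27me3 did so for 845 genes (4.23%), of which 5 are zinc finger genes and 130 lie on chromosome 19.

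Of 9681 genes tested by limma with Benjamini-Hochberg adjustment, 3591 (37.1%) had higher coverage by H3K9me3 and 3623 (37.4%) by H3K27me3 at an adjusted p below 0.05. The numbers are close but the sizes are not: the median difference of mean coverage was 6.18 percentage points among genes higher in H3K9me3 and 26.5 points among genes higher in H3K27me3. A difference of at least 50 points was reached by 405 of the genes higher in H3K9me3 and by 874 of the genes higher in H3K27me3. Genes higher in H3K9me3 were longer, with a median of 65.3 kb, against 21.2 kb for genes higher in H3K27me3 and 24.2 kb for all genes. The first count was 1615 and 1677 without H3K27me3 replicates 1 and 2. The second was 1463 and 1344 without H3K9me3 replicates 1 and 2, and 2290 without H3K27me3 replicate 2. Coverage by either mark alone could bring a gene over the filter of 1% mean coverage. In 2808 of the 3591 genes and 1608 of the 3623, the other mark was at 0% in both of its lists. Those genes entered the test only through the mark in which they were called higher. Over all 19970 genes the called shares were 18.0% and 18.1%. The shares of tested genes given below for gene lists have the same limit. Genes are not independent replicates. A p-value here sets a difference against the spread between the 2 lists of a mark, and limma moderates that spread by a trend over all genes. Genes with no spread of their own, such as ZNF671 (SD of 0 for both marks), take it from other genes.

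The 12 genes most fully covered by H3K9me3 were ZNF671, ZNF132, ZNF256, ANHX, ZIK1, ZFP3, PPP2R1A, ZSCAN1, MSANTD5, C19orf18, ZIM3 and DPRX. The body of ZNF671 was covered to 100% in both H3K9me3 lists and to 0% in both H3K27me3 lists (limma with Benjamini-Hochberg adjustment, adjusted p = 0.00186). PPP2R1A, which encodes a scaffold subunit of protein phosphatase 2A and is no zinc finger gene, lies inside the longest H3K9me3 domain and was covered to 96.5% and 97.3% by H3K9me3 and to 0% by H3K27me3 in both lists. No H3K9me3 base lay within 1 kb of its 5′ end, whereas all 2001 bases around its 3′ end were covered. ANHX, a homeobox gene at the end of chromosome 12, was covered to 100% and 97.8% by H3K9me3 and to 4.25% and 2.11% by H3K27me3. DPRX, a homeobox gene related to OTX and CRX, was covered to 91.0% and 100% by H3K9me3 and to 0% by H3K27me3 in both lists. All 12 passed the limma test in favour of H3K9me3. The calls of ZSCAN1, C19orf18 and DPRX were lost without H3K27me3 replicate 1 or 2, at adjusted p of 0.0599 to 0.0829 (limma with Benjamini-Hochberg adjustment).

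By the same rule (at least 5 kb, at most 3 sharing their opening letters) the 12 genes most fully covered by H3K27me3 were PDYN, CD300E, CD300LB, CYP2A13, CYP11B1, KLK10, KLK2, CYP2A6, KRT9, KLK3, DEFB118 and SLC2A4. That rule left out CYP2A7 and shorter genes such as SOX14, each covered to 100% in both H3K27me3 lists. The 12 include steroid and drug metabolising cytochromes P450, kallikrein proteases, a keratin of palm and sole skin, an antimicrobial beta-defensin and the insulin-regulated glucose transporter. SLC2A4 was covered to 0% in both H3K9me3 lists and to 98.3% and 98.96% in the H3K27me3 lists. KLK10 was covered to 8.60% and 0% by H3K9me3 and to 100% by H3K27me3 in both lists. Several also lay under H3K9me3 peaks: CYP2A13 was covered to 86.1% and 38.7% by H3K9me3 and to 100% by H3K27me3 in both lists, and did not pass (limma with Benjamini-Hochberg adjustment, adjusted p = 0.0626). The other 11 passed in favour of H3K27me3. Without H3K27me3 replicate 1 or 2 the calls of CD300E, CD300LB, KLK10, KLK2, CYP2A6, KRT9, KLK3 and DEFB118 were lost, at adjusted p of 0.0623 to 0.206, and without H3K9me3 replicate 1 or 2 CYP2A13 passed, at 0.000606 and 0.00144 (limma with Benjamini-Hochberg adjustment). CYP2A6, CYP2A7 and CYP2A13 are close copies of each other, and whether reads that map to several copies were kept is not given in the sources used here.

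Zinc finger genes of chromosome 19 had the largest excess of mean H3K9me3 coverage among the gene lists described. Of 262 such genes, 248 had enough coverage to be tested. Of these, 236 (95.2%) were higher in H3K9me3 and 3 (1.21%) in H3K27me3, against 37.1% and 37.4% of all genes tested. Their median shared coverage was 78.9% by H3K9me3 and 0% by H3K27me3, where the median of all protein-coding genes was 0% for each mark. Their mean coverage was 69.0% and 73.7% in the H3K9me3 lists and 1.17% and 1.68% in the H3K27me3 lists. Of 304 zinc finger genes on other chromosomes, 214 were tested, and 177 (82.7%) were higher in H3K9me3 and 16 (7.48%) in H3K27me3. Median shared coverage of the 304 was 7.96% by H3K9me3 and 0% by H3K27me3. Their mean coverage was 29.9% and 32.4% in the H3K9me3 lists and 2.201% and 2.73% in the H3K27me3 lists. ZNF75A on chromosome 16 was covered to 98.3% and 97.5% by H3K9me3, and ZNF140 on chromosome 12 to 97.2% and 94.6%, with 0% by H3K27me3 in both lists for each. Members were taken by symbol, and some share bases with read-through or overlapping neighbours.

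Clustered protocadherins, neuronal adhesion genes in a tandem array on chromosome 5, also had more H3K9me3, with a mean excess between those of the zinc finger genes on chromosome 19 and elsewhere. Of 53 genes, 52 were tested, 47 (90.4%) were higher in H3K9me3 and 0 in H3K27me3, against 37.1% and 37.4% of all genes tested. Each count of 0 given for a gene list was also 0 by limma at an unadjusted p under 0.05, the only tool run, except for H3K27me3 in the PRAME family, given further below. Their mean coverage was 39.9% and 35.2% in the H3K9me3 lists and 2.67% and 4.19% in the H3K27me3 lists. PCDHB15 was covered to 82.6% and 74.2% by H3K9me3 and to 0% by H3K27me3 in both lists. Members of the alpha and gamma sets overlap each other, so they are not independent counts.

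Families of developmental transcription factors differed in how many members were higher in H3K27me3, which held for 37.4% of all genes tested. Of 9 PAX genes, which pattern the nervous system and other organs, 9 were tested, 0 were higher in H3K9me3 and 8 in H3K27me3. PAX2 was covered to 2.54% and 1.95% by H3K9me3 and to 61.2% and 69.9% by H3K27me3. Of 14 NKX homeobox genes 12 were tested, 0 were higher in H3K9me3 and 10 in H3K27me3, and of 8 LHX genes 6 were tested, 0 were higher in H3K9me3 and 5 in H3K27me3. Of 49 forkhead genes other than FOXA 23 were tested, 4 were higher in H3K9me3 and 13 in H3K27me3. The share was closer to that of all genes in 2 families: of 14 TBX genes 9 were tested, 2 were higher in H3K9me3 and 4 (44.4%) in H3K27me3, and of 19 SOX genes 11 were tested, 2 were higher in H3K9me3 and 4 (36.4%) in H3K27me3. SOX14, the SOX gene most fully covered by H3K27me3, was covered to 0% in both H3K9me3 lists and to 100% in both H3K27me3 lists. FOXI3, a forkhead gene of the inner ear and teeth, was covered to 0% in both H3K9me3 lists and to 90.01% and 88.9% in the H3K27me3 lists.

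The HOX genes, the classical Polycomb targets of body axis patterning, had no H3K9me3, and their mean body coverage by H3K27me3 was no higher than that of all genes. Only 11 of 39 had enough coverage to be tested. Of these, 0 were higher in H3K9me3 and 8 (72.7%) in H3K27me3, against 37.1% and 37.4% of all genes tested. Of all 39, tested or not, 20.5% were higher in H3K27me3, against 18.1% of all genes. Mean shared coverage of the 39 was 0% for H3K9me3 and 4.60% for H3K27me3, against 3.25% and 6.10% over all protein-coding genes. Per list, mean H3K27me3 coverage was 5.78% and 8.97%, against 7.37% and 9.27% over all genes. Shared H3K27me3 lay within 1 kb of an end in 11 of the 39, a somewhat larger share than the 23.3% of all genes (4644 of 19970). HOXD13, of limb and genital development, was the fullest, with 0% in both H3K9me3 lists and 60.01% and 75.02% in the H3K27me3 lists. Its call was lost without H3K9me3 replicate 1 or 2, at adjusted p of 0.0611 and 0.0600 (limma with Benjamini-Hochberg adjustment).

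Potassium channel, Wnt ligand, keratin, defensin and glutamate receptor genes each had most of their tested members higher in H3K27me3. The shares were 60.8%, 81.25%, 66.7%, 69.6% and 65.2% in that order. Over all genes tested, 37.1% were higher in H3K9me3 and 37.4% in H3K27me3. Of 96 potassium channel genes 74 were tested, 5 were higher in H3K9me3 and 45 in H3K27me3. Of 19 Wnt ligand genes 16 were tested, 1 was higher in H3K9me3 and 13 in H3K27me3. Of 55 keratin genes 39 were tested, 2 were higher in H3K9me3 and 26 in H3K27me3, and of 45 defensin genes 23 were tested, 0 were higher in H3K9me3 and 16 in H3K27me3. Among glutamate receptor genes 23 of 27 were tested, 2 were higher in H3K9me3 and 15 in H3K27me3. GRM6 was the strongest of the first direction, with 89.9% and 91.3% covered by H3K9me3 and 2.47% and 0% by H3K27me3, and it lies within the ZNF354 domain on chromosome 5. GRIN2C, an NMDA receptor subunit gene, was covered to 0% in both H3K9me3 lists and to 66.6% and 78.0% in the H3K27me3 lists.

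**Figure D3:**
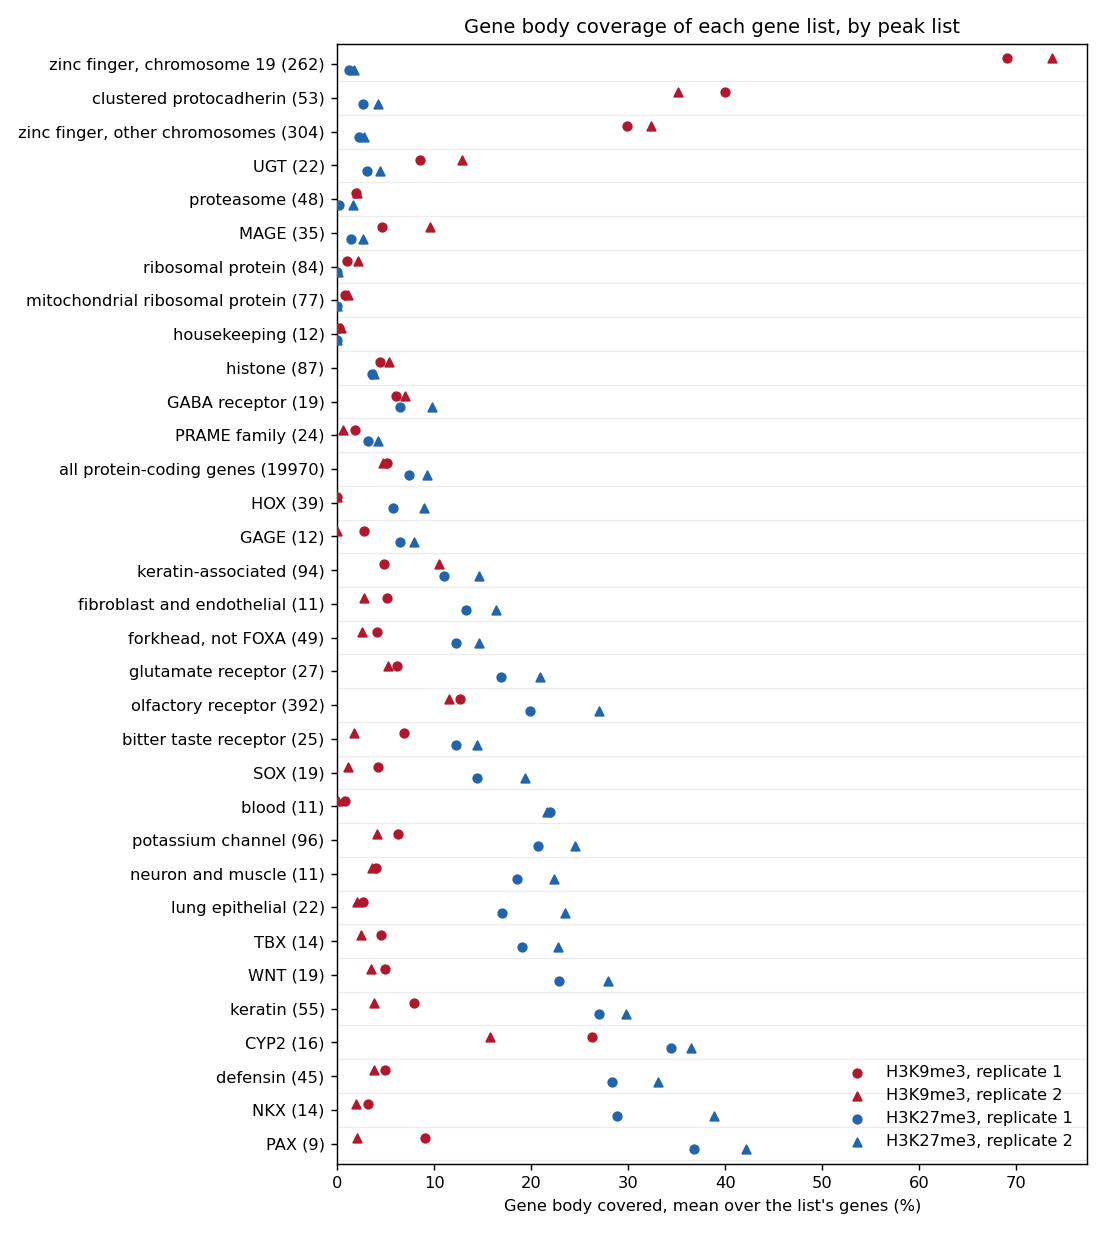
Mean percent of the gene body covered (x axis) over the members of each gene list of at least 9 genes (y axis, members in brackets) and over all protein-coding genes; circles are replicate 1 and triangles replicate 2, with H3K9me3 in red above H3K27me3 in blue. Chromosome 19 zinc finger genes stand at 69.0% and 73.7% for H3K9me3 and 1.17% and 1.68% for H3K27me3, and PAX genes at the foot at 9.04% and 2.03% for H3K9me3 and 36.8% and 42.1% for H3K27me3.

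Other families had members on both sides, where 37.1% of all genes tested were higher in H3K9me3 and 37.4% in H3K27me3. Of 392 olfactory receptor genes 190 were tested, 34 (17.9%) were higher in H3K9me3 and 73 (38.4%) in H3K27me3, the second share being near that of all genes. Coverage of at least 50% was found for 20 under H3K9me3 and 53 under H3K27me3. Of 16 CYP2 genes 12 were tested, 5 were higher in H3K9me3 and 6 in H3K27me3. Of 22 UDP glucuronosyltransferase genes, which conjugate drugs and bilirubin, 15 were tested, 12 were higher in H3K9me3 and 3 in H3K27me3, but the UGT1A genes share the bases of 1 locus. Of 19 GABA receptor genes 16 were tested, 8 were higher in H3K9me3 and 5 in H3K27me3. GABRG3, in the 15q11-q13 cluster, was covered to 30.0% and 33.0% by H3K9me3 and to 6.68% and 13.5% by H3K27me3. The call of GABRG3 was lost without H3K9me3 replicate 1, H3K9me3 replicate 2 or H3K27me3 replicate 1, at adjusted p of 0.148, 0.170 and 0.0608 (limma with Benjamini-Hochberg adjustment). Of 35 MAGE genes, germline genes often expressed in tumours, 20 were tested, 8 (40%) were higher in H3K9me3, near the share of all genes, and 2 (10%) in H3K27me3.

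Genes of the ribosomes and the proteasome, taken by symbol, had little of either mark. The cytosolic ribosomal list includes the additional gene copies RPL10L and RPL39L. RPL39L is among its genes higher in H3K9me3, at 2.16% and 5.43%, against 0% for H3K27me3 in both lists. Of 84 cytosolic ribosomal protein genes 5 had enough coverage to be tested, of 77 mitochondrial ribosomal protein genes 7, and of 48 proteasome genes 9. Among these, 4 (80%), 5 (71.4%) and 4 (44.4%) were higher in H3K9me3 and 0 in each list were higher in H3K27me3. Over all genes tested, 37.1% were higher in H3K9me3 and 37.4% in H3K27me3, so the proteasome share for H3K9me3 was near that of all genes. Coverage by H3K9me3 alone could bring a gene into the test, so these shares of few tested genes do not measure direction. Of all members, tested or not, 4.76%, 6.49% and 8.33% were higher in H3K9me3, against 18.0% of all genes. PSMC4, a proteasome ATPase gene on chromosome 19, was the fullest at 60.9% and 68.6% by H3K9me3 and 0% by H3K27me3 in both lists. RPL12 was covered to 44.0% and 72.6% by H3K9me3 and to 0% by H3K27me3 in both lists, and its call was lost without H3K27me3 replicate 1 or 2, at adjusted p of 0.123 and 0.126 (limma with Benjamini-Hochberg adjustment).

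The label of a lung carcinoma line was set against cell type genes, although a repressive mark bears on expression only indirectly. Of 22 lung epithelial genes 11 were tested, 3 were higher in H3K9me3 and 6 in H3K27me3. The 6 were the surfactant genes SFTPC, SFTPD, SFTPA1 and SFTPA2, the secretoglobin gene SCGB3A2 and NKX2-1, the lung lineage factor. NKX2-1 was covered to 0% in both H3K9me3 lists and to 57.6% and 78.1% in the H3K27me3 lists. These are also the 6 fullest members of the list, a naming rule that left out the 3 higher in H3K9me3. Of the 22 lung epithelial genes, 11 had no shared base of either mark in the body, and median shared coverage was 0% for each mark. Of 11 blood genes 8 were tested, 0 were higher in H3K9me3 and 7 in H3K27me3. Of 11 neuron and muscle genes 10 were tested, 1 was higher in H3K9me3 and 5 in H3K27me3, and of 11 fibroblast and endothelial genes 10 were tested, 1 was higher in H3K9me3 and 3 in H3K27me3. Against 37.1% of all genes tested for H3K9me3 and 37.4% for H3K27me3, the share higher in H3K27me3 was 54.5% for lung epithelial, 87.5% for blood, 50% for neuron and muscle and 30% for fibroblast and endothelial genes, over few genes each. The call of NKX2-1 was lost without H3K9me3 replicate 1 or 2, at adjusted p of 0.0849 and 0.0841 (limma with Benjamini-Hochberg adjustment). MYOD1, the muscle lineage factor, was covered to 0% in both H3K9me3 lists and to 84.2% and 84.1% in the H3K27me3 lists.

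Both marks touched 2955 of the 19970 genes, where H3K9me3 touched 7344 (36.8%) and H3K27me3 touched 5645 (28.3%). The number expected by coincidence was not computed. Each covered at least 20% of the body of the same 96 genes, among them NPTX2, ZNF536, CYP2A6 and CYP2A7. CYP2A7 was covered to 89.4% and 65.0% by H3K9me3 and to 100% by H3K27me3 in both lists. Its excess of H3K27me3 (adjusted p = 0.0356) was not called without H3K27me3 replicate 1 or 2, at adjusted p of 0.238 and 0.247 (limma with Benjamini-Hochberg adjustment), and turned to the H3K9me3 side when coverage was scaled to each list's own, at a log2 difference of 0.39.

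At the 5′ ends of genes H3K27me3 was more frequent than H3K9me3. Among 15811 protein-coding genes with a RefSeq promoter, which gives the strand, H3K9me3 lay within 1 kb of 775 5′ ends (4.90%) and H3K27me3 within 1 kb of 2921 (18.5%). Per list the shares were 8.67% and 6.78% for H3K9me3 and 20.6% and 24.2% for H3K27me3, without overlap (two-sided exact permutation p = 0.33, the smallest possible). At 3′ ends the gap was smaller: 1044 ends (6.60%) had H3K9me3 and 1635 (10.3%) had H3K27me3, with 10.5% and 9.06% in the H3K9me3 lists and 12.5% and 14.8% in the H3K27me3 lists. Without regard to strand, 1822 of 19970 genes (9.12%) had H3K9me3 near an end and 4644 (23.3%) had H3K27me3 near an end. The log2 ratio of H3K9me3 over H3K27me3 of these counts was -1.35, against -0.59 and -0.89 without H3K9me3 replicates 2 and 1.

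H3K9me3 that touched a gene mostly lay away from both ends. In 4677 genes it was found in the body alone, in 376 at the 5′ end alone, in 645 at the 3′ end alone and in 399 at both ends. H3K27me3 was in the body alone in 1267 genes, at the 5′ end alone in 1811, at the 3′ end alone in 525 and at both ends in 1110. Among genes marked at 1 end, the 5′ end was the marked one in 36.8% for H3K9me3 and in 77.5% for H3K27me3.

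Profiles over the 8923 genes of at least 20 kb differed in shape around the 5′ end, although both marks dipped in the first kilobase of the gene. Shared H3K9me3 coverage was 4.46% in the kilobase that starts 20 kb upstream, 1.54% in the first kilobase of the gene and 3.97% in the last kilobase before 20 kb inside it. Shared H3K27me3 coverage was 5.48% in the kilobase that starts 20 kb upstream, 10.7% between 2 and 1 kb upstream, 6.56% in the first kilobase of the gene, 9.60% in the second and 4.05% in the last before 20 kb. H3K9me3 thus had a single dip at the 5′ end, and H3K27me3 had a peak on each side of a narrower dip. Both lists of each mark showed its shape. At the 3′ end both marks were lowest in the last kilobase of the gene, at 2.67% for H3K9me3 and 3.01% for H3K27me3. In the last kilobase before 20 kb downstream they stood at 4.33% for H3K9me3 and 5.74% for H3K27me3.

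**Figure D4:**
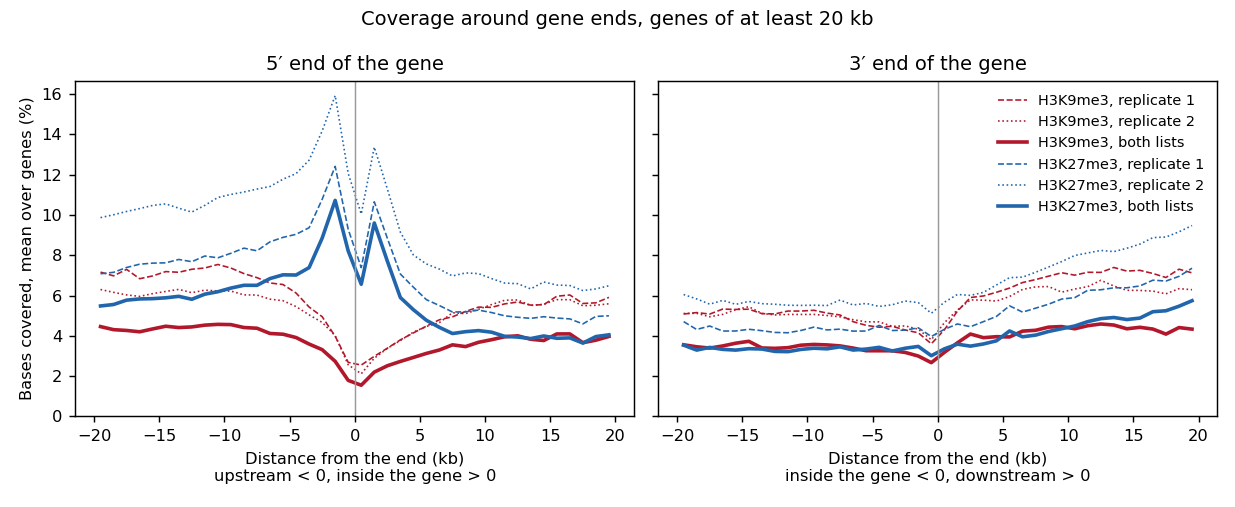
Mean percent of bases covered (y axis) by distance from the 5′ end (left) and 3′ end (right) of 8923 genes of at least 20 kb (x axis, kb, in steps of 1 kb); thick lines are bases in both lists, dashed and dotted lines replicates 1 and 2, with H3K9me3 in red and H3K27me3 in blue. At the 5′ end H3K9me3 falls to 1.54% while H3K27me3 reaches 10.7% upstream and 9.60% inside the gene, and at the 3′ end both thick lines are lowest in the last kilobase of the gene, at 2.67% for H3K9me3 and 3.01% for H3K27me3.

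Zinc finger genes kept the 5′ dip of H3K9me3 at a far higher level. Over 287 of them of at least 20 kb, shared H3K9me3 coverage was 40.1% between 2 and 1 kb upstream, 26.5% in the first kilobase and 40.5% in the second, and 50.3% in the kilobase that starts 5 kb before the 3′ end. H3K27me3 over the same genes was 3.40%, 2.04%, 1.91% and 0.904% at those places. Divided into 10 equal stretches, the body of these genes was covered least in the first (37.2% by H3K9me3 and 1.47% by H3K27me3) and most in the ninth (50.7% by H3K9me3 and 1.297% by H3K27me3). Over all 8923 genes, H3K27me3 was instead densest in the first stretch, at 2.56% for H3K9me3 and 5.82% for H3K27me3.

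Promoters carrying a mark held fewer CpG than promoters without. Of the 15811 promoters of 300 bases, 240 overlapped H3K9me3 alone, 1260 H3K27me3 alone, 64 both and 14247 neither. The median ratio of observed to expected CpG was 0.556 with H3K9me3 alone, 0.382 with H3K27me3 alone, 0.221 with both and 0.784 with neither. The ratio per list was 0.497 and 0.437 over promoters in the H3K9me3 lists and 0.358 and 0.399 over those in the H3K27me3 lists. These groups did not overlap (two-sided exact permutation p = 0.33, the smallest possible). Among promoters with H3K9me3 alone, the 114 of zinc finger genes had a median ratio of 0.702 (quartiles 0.507 and 0.846) and the other 126 one of 0.425 (0.187 and 0.633). All 477 zinc finger promoters had a median of 0.798.

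The share of promoters with H3K27me3 was lower in each class of higher CpG ratio. In the class from 0 to 0.2, 3.47% of promoters had H3K9me3 and 18.6% had H3K27me3, and in the class of 1 or more, 0.538% had H3K9me3 and 2.05% had H3K27me3. H3K9me3 did not follow the order throughout, with 4.14% in the class from 0.4 to 0.6. More genes had a mark within 1 kb of the 5′ end than in the 300 bases of the promoter, as with WNT6 above, and the wider window takes in more bases. Among 10368 genes with a ratio of at least 0.6, 1.22% had H3K9me3 and 4.21% had H3K27me3 in the promoter, while 3.97% had H3K9me3 and 15.6% had H3K27me3 within 1 kb of the 5′ end. Among 3993 genes with a ratio under 0.4, 2.96% had H3K9me3 and 17.3% had H3K27me3 in the promoter, while 6.44% had H3K9me3 and 24.5% had H3K27me3 within 1 kb.

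**Figure D5:**
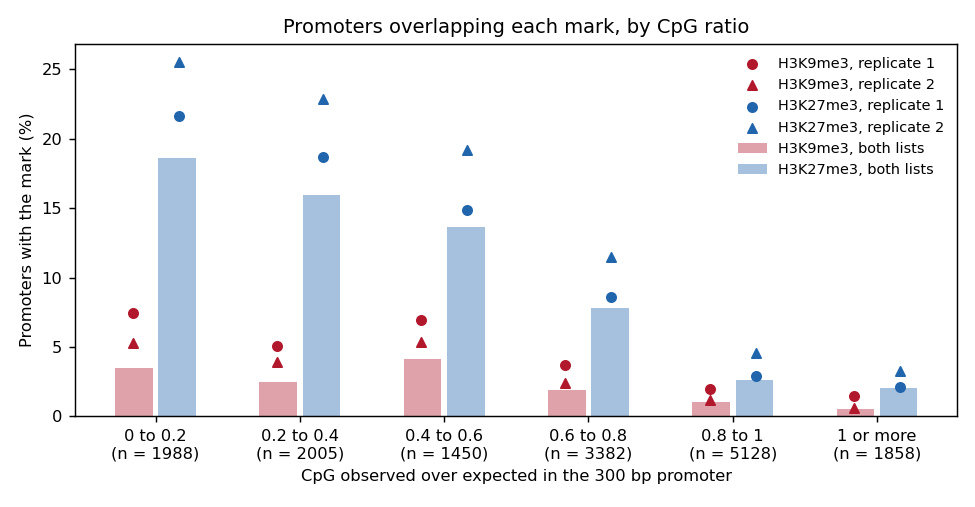
Percent of promoters overlapping each mark (y axis) by the ratio of observed to expected CpG in the 300 bases (x axis, number of promoters below each class); bars are promoters marked in both lists, circles replicate 1 and triangles replicate 2, with H3K9me3 in red on the left and H3K27me3 in blue on the right. H3K27me3 bars step down between 18.6% and 2.05%, and H3K9me3 bars stay at or below 4.14%.

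A cluster of microRNA genes inside the H3K9me3 domains of chromosome 19 was looked at after these results were seen. Of 1550 RefSeq hairpins, 74 overlapped H3K9me3 and 76 overlapped H3K27me3 in both lists. Of the 43 hairpins at chr19:53666679-53762430, counted by chaining hairpins no more than 10 kb apart, 29 had H3K9me3 and 3 had H3K27me3. Per list, 31 and 37 of the 43 had H3K9me3 and 6 and 8 had H3K27me3. Peaks covered 85.4% and 90.9% of the cluster in the H3K9me3 lists and 15.8% and 21.2% in the H3K27me3 lists. This cluster, known for expression in placenta and stem cells, lies in the same domain as DPRX. In the other cluster of at least 10 hairpins, the imprinted one at chr14:101022066-101066801, 6 of 40 had H3K9me3 and 0 had H3K27me3, and per list 9 and 18 had H3K9me3 and 0 had H3K27me3.

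Mature sequences of hairpins that overlap H3K9me3 in both lists are shown to give the seed families that the mark spans, with the seed (bases 2 to 8) in capitals, from RefSeq. The seed shared by the first 3 occurs in products of 5 such hairpins, 1 of which (MIR526A1) was covered over 23.5% of its length in both lists, that of the next 2 in products of 4, and that of the last in products of 3.
hsa-miR-518b: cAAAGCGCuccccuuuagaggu
hsa-miR-518c-3p: cAAAGCGCuucucuuuagagugu
hsa-miR-518d-3p: cAAAGCGCuucccuuuggagc
hsa-miR-520a-3p: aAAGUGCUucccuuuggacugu
hsa-miR-520e-3p: aAAGUGCUuccuuuuugaggg
hsa-miR-516a-3p: uGCUUCCUuucagagggu
The hairpins of miR-518b, miR-518d, miR-520a and miR-520e were covered over their whole length in both H3K9me3 lists and in neither H3K27me3 list. The members are near copies of each other, so a peak at one hairpin can hold reads from another.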

How the data were processed

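The authors deposited 1 peak list for each of the 4 libraries; replicates were not pooled for it. Per the submitters' processing notes, the build was hg38 and MACS2, deepTools, DRAGEN, BWA 2.2.1, SAMtools 1.8 and fastp 0.23.2 were used. In what order and with which settings is not stated there. For every peak the authors deposited a fold enrichment, which is a ratio on a linear scale, a −log10 p-value and a −log10 q-value. No deposited q-value exceeds 0.05. Fold and q were used only to rank or filter peaks within a list. The lists hold no depth, so counting intervals are not given, and differences in sequencing depth could change how many peaks a list holds.

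Covered bases were computed in Python 3.11.15 with numpy 2.4.6. No genome was used: a chromosome's length was taken as the last base of any peak in the 14 lists, and genes, strands and sequences came from RefSeq tables (GRCh38.p14). Strand was known for 15811 of 19970 protein-coding genes. N50 was taken over domain lengths, joined gaps included. Gene bodies of at least 1 kb and bins, each with a mean coverage of at least 1% over the 4 lists, were tested with limma 3.58.1 (R 4.3.3, trend) on the arcsine square root of the fraction covered, with Benjamini-Hochberg adjustment and a threshold of 0.05. The interval functions and the fit were tested on simulated data. Single values were compared by exact permutation over the 4 lists. Same-numbered libraries did not deviate together, so the fits have no replicate term.

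The members, gene lists and tests were chosen with earlier results of these data known. Named genes are, for each mark, the 12 of at least 5 kb with the largest shared coverage (at most 3 that share the letters opening their symbols), the genes of the 8 longest domains and 6 fullest bins, up to 6 of each list, and the 6 largest other differences.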

Additional observations from a re-analysis of the deposited data

How the results depend on the processing

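On the log2 scale (H3K9me3 over H3K27me3), covered length, domain length (N50) and gene ends were -0.54, -1.55 and -1.35. Leaving out 1 list in turn sets 1 list against the shared bases of the other mark and gave -1.34 to 0.40, -1.93 to -1.14 and -1.73 to -0.59. Covered length reversed, to 0.26 and 0.40, without H3K9me3 replicates 1 and 2, as 1 list always covers more than 2 share. Bases in either list gave -0.14 for covered length and -0.83 for gene ends. The domain length ratio was -0.62 with no joining and -1.07 with gaps of up to 1 kb, and gene ends within 5 kb gave -0.53. The upper 50% of peaks by fold enrichment, lists of equal length, a −log10 q of at least 2 and whole shared peaks moved none of the 3 by more than the spread between replicates, nor did leaving out chromosome 19, which for domains and gene ends was chosen after seeing the data.

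Without each list in turn, 1615 to 3345 genes were higher in H3K9me3 and 1344 to 2722 in H3K27me3, and 761 to 1048 bins in H3K9me3 and 268 to 1083 in H3K27me3; the arm of 1 list is then assumed to vary like the other. Other filters and scales left both gene counts within 1.5 times. The correlation of the deviations of same-numbered libraries was -0.136 over genes and -0.416 over bins, so the numbers do not pair them. A replicate block gave 3468 genes higher in H3K9me3 and 3418 in H3K27me3, and 817 and 584 bins. Crossed pairing, chosen after seeing the data, gave 3531 and 3862 genes and 1015 and 1072 bins. Of 202 named genes tested, 103 had a call that was lost without some list. On the log2 scale relative to each list's own coverage, CYP2A7 and CYP2F1 reversed, to 0.39 and 0.15. H1-7, not called, reversed to 0.48 with the upper 50% of peaks and to 0.69 without H3K9me3 replicate 2 (lowest without 1 list -0.88), and MAGEL2, not called, to 0.0016 without H3K9me3 replicate 1 (lowest -0.23); the cause was not tested.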

Other observations

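Of 6 GATA genes 4 were tested by limma with Benjamini-Hochberg adjustment, 0 were higher in H3K9me3 and 4 in H3K27me3. Over all genes tested, 37.1% were higher in H3K9me3 and 37.4% in H3K27me3. GATA4, a factor of heart and gut, was covered to 4.53% and 1.98% by H3K9me3 and to 57.1% and 70.0% by H3K27me3. The call of GATA4 was lost without H3K9me3 replicate 1 or 2, at adjusted p of 0.0633 and 0.0693 (limma with Benjamini-Hochberg adjustment). GATA2 and GATA6 had no peak of either mark in any list. TBX5 and TBX4, both genes of limb development, lay on opposite sides, with TBX5 at 25.3% and 9.61% for H3K9me3 and 79.4% and 91.2% for H3K27me3, and TBX4 at 20.01% and 19.05% for H3K9me3 and 3.97% and 5.25% for H3K27me3. The call of TBX5 was lost without any 1 of the 4 lists, at adjusted p of 0.0723 to 0.117 (limma with Benjamini-Hochberg adjustment).

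Short tandem families were tested for few members, where 37.1% of all genes tested were higher in H3K9me3 and 37.4% in H3K27me3. Of 94 keratin-associated protein genes 14 were tested, 2 (14.3%) were higher in H3K9me3 and 6 (42.9%) in H3K27me3, the second share being near that of all genes. KRTAP4-6 was covered to 100% in both H3K9me3 lists and to 0% in both H3K27me3 lists, and KRTAP5-9 to 0% in both H3K9me3 lists and to 100% in both H3K27me3 lists. Of 25 bitter taste receptor genes 4 were tested, 0 and 1 were higher in H3K9me3 and in H3K27me3, and of 12 GAGE genes 3, 0 and 2. Of 24 PRAME family genes 6 were tested and 0 were higher in either mark, with 0 higher in H3K9me3 and 1 in H3K27me3 by limma at an unadjusted p under 0.05. Of 87 histone genes 7 were tested, 1 was higher in H3K9me3 and 4 in H3K27me3, and of 12 housekeeping genes 1 was tested, SDHA, higher in H3K9me3 at 2.61% and 4.51%, against 0% for H3K27me3 in both lists. The call of SDHA was lost without H3K27me3 replicate 1 or 2, at adjusted p of 0.101 and 0.104 (limma with Benjamini-Hochberg adjustment).

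Outside protein-coding genes, immunoglobulin and T cell receptor V segments carried mean shared coverage of 0.670% by H3K9me3 and 19.7% by H3K27me3 (248 segments). The order was the opposite for 1196 snoRNA genes, at 6.11% for H3K9me3 and 2.35% for H3K27me3. In 18177 lncRNA genes the means were 3.59% and 7.61%, and in 15212 pseudogenes 6.10% and 6.87%, in the same order of marks. Many snoRNA genes and pseudogenes are near copies of each other or lie in tandem, and were counted one by one.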
